A study of Homo sapiens with 8 samples.

Results

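The HOX cluster genes were taken as every row of the KYSE30 and KYSE510 tables whose symbol was HOX, a cluster letter from A to D and a paralog number. This rule found 36 of the 29100 genes listed in either table. There were 34 among the 26008 genes of KYSE30 and 35 among the 25561 genes of KYSE510, and 33 were in both. RNA-seq was performed on KYSE30 and KYSE510, established human esophageal squamous cell carcinoma (ESCC) lines that carried a lentiviral hairpin vector, either the control hairpin shNC or shLHX2, which targets the LIM-homeodomain factor LHX2. All libraries had the genotype label WT and the treatment label shRNA, each group had 2 libraries, and the series held 8. The paper lists 2 hairpin sequences against LHX2. The sample titles do not say which was used, or whether the 2 shLHX2 libraries of a line carried the same one. Cells with the vector were selected with an antibiotic, and each line stands for 1 tumor only. No source used here says that the 2 libraries of a group came from separate cultures, so the p-values measure the spread between these libraries, which may be technical.

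HOX proteins are homeodomain transcription factors that assign position along the body axis. Their genes lie in 4 clusters, and low paralog numbers (3′ in the cluster) are used toward the head and high numbers (5′) toward the tail and limb ends. Polycomb proteins keep HOX clusters silent, Trithorax proteins and retinoic acid work toward their activity, and TALE proteins such as PBX and MEIS bind DNA together with HOX proteins. Adult cells, skin and squamous epithelia included, keep part of the pattern of the region from which they came. HOXC13 is known for its role in hair and nail keratin genes, HOXA9 and HOXA10 for leukemia and for the reproductive tract, and HOXB13 for the prostate.

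The values per library are reads worked back from the deposited mean of each gene, given as normalized counts, that is, reads divided by the size factor of the library. Each line has its own scale unless stated otherwise. The libraries could be told apart by group but not by replicate number, so in each group the library with the larger size factor is called the first. Together the reads worked back came to between 13995417 and 18393750 per library, of which 3569 to 4955 fell in HOX genes. LHX2 itself was at 99.2 and 118 normalized counts in the KYSE30 shNC libraries and at 29.7 and 50.2 with shLHX2, 2.80-fold lower (limma, adjusted p = 0.00018). In KYSE510 it was at 14.7 and 8.87 in shNC and at 10.8 and 1.021 with shLHX2. These KYSE510 groups overlapped, and the gene lay under the level at which genes were tested. The reads of KYSE510 therefore cannot show the knockdown. The paper describes both lines as high in LHX2, and it checked the knockdown in both by qRT-PCR and Western blotting. On 1 scale for the 8 libraries, the LHX2 means in shNC were 107 in KYSE30 and 12.1 in KYSE510. All 9 squamous markers were above that level in both lines. Of the other markers, 1 of 5 leukocyte genes (CD68), 2 of 4 endothelial genes (VWF and CDH5) and 1 of 5 fibroblast genes (COL1A1) were above it, while CD3E and DCN had no row in KYSE30 and KDR had none in KYSE510. On 1 scale for the 8 libraries, the summed squamous markers went from a range of 20077 to 20165 normalized counts in shNC to 15597 to 15673 with shLHX2 in KYSE30. In KYSE510, where 2 of the 9 could not be worked back, the rest went from 41558 to 42724 down to 31315 to 31505. Summed on the same scale, the leukocyte genes went from 142 to 175 down to 57.5 to 66.7 in KYSE30 and from 448 to 463 down to 304 to 339 in KYSE510. The endothelial genes were at 233 to 245 against 89.7 to 104 in KYSE30 and at 272 to 279.5 against 273 to 274 in KYSE510. The fibroblast genes were at 310.05 to 314 against 208 to 222 in KYSE30 and at 792 to 897 against 688 to 693 in KYSE510. The part of these shifts in the HOX values was not tested.

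Of the 7 HOX genes that passed a knockdown test in either line, the promoters of HOXA3, HOXA7 and HOXA10 are shown, with that of HOXA9, which lies between HOXA7 and HOXA10 and had the widest gap between the lines. The others that passed, HOXC13, HOXB4, HOXB6 and HOXB9, are named only. Each runs from 250 bases before to 50 bases after the most upstream start that RefSeq lists on GRCh38.p14, read on the minus strand, 5′ to 3′. Capitals mark the homeodomain core TAAT, or ATTA where the core is on the other strand.
HOXA3 chr7:27152534-27152833: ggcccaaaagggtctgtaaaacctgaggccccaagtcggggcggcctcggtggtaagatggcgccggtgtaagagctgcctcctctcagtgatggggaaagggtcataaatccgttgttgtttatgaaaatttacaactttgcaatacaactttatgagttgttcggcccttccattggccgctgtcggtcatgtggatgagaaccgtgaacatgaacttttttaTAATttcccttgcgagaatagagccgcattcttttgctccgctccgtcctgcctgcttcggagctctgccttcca
HOXA7 chr7:27156626-27156925: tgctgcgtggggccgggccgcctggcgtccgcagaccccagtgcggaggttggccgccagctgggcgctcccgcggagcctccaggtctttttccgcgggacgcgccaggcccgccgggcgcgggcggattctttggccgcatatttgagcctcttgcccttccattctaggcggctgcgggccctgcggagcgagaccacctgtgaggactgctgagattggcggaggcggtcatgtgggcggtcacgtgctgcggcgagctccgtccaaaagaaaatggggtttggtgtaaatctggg
HOXA9 chr7:27165488-27165787: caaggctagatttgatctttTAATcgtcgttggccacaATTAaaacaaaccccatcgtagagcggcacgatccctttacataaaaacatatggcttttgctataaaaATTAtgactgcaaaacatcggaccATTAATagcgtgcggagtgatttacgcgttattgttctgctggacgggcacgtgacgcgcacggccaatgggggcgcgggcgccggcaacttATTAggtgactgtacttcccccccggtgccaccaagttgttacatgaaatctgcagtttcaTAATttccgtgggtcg
HOXA10 chr7:27179812-27180111: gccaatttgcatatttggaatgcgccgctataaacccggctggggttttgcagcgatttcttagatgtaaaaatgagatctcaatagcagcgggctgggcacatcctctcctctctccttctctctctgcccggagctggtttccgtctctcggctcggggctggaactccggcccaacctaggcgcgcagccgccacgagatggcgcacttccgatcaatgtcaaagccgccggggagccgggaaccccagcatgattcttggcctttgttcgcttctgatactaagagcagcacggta
The core occurred 7 times in the HOXA9 window, with overlapping matches counted apart, once in that of HOXA3, and was not found in those of HOXA7 and HOXA10. These are single windows: a second HOXA10 start had 2 cores, and the 6 other HOXA3 starts had from 0 to 3. It was in 21 of 27 HOX promoter entries, which covered 20 genes with HOXC4 and HOXC5 on the same window, and in 50.2% of all 35116 entries. The longer palindrome TAATTA, a letter string that LIM-homeodomain factors are known to bind, was in 2 of the 27 HOX entries, one of HOXD3 and one of HOXD11, and in 4.84% of all entries. A match is a string of letters and no measure of binding.

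A member was read where its mean over the 4 libraries of a line was at least 10 normalized counts. In KYSE30 24 of 34 members and in KYSE510 25 of 35 passed, and 26 passed in either line. All 11 HOXA genes passed in both lines. Of the HOXB genes 6 passed in KYSE30 and 7 in KYSE510, and the same numbers held for the HOXC genes. The HOXD cluster was near silent, since only HOXD8 passed, and only in KYSE30, at a mean of 11.05 normalized counts. Too low to read in KYSE30 were HOXB2, HOXB8, HOXB9, HOXC5, HOXC8, HOXC12, HOXD9, HOXD10, HOXD11 and HOXD13. In KYSE510 they were HOXB2, HOXB8, HOXC5, HOXC12, HOXD1, HOXD4, HOXD8, HOXD9, HOXD10 and HOXD11. HOXB1, HOXD3 and HOXD12 had no row in either table, and HOXD1 and HOXD4 had none in KYSE30 and HOXD13 none in KYSE510. These were not analysed here. The members next to the limit were HOXB9 (9.95) and HOXC8 (9.59) just under it and HOXD8 (11.05) just over it in KYSE30, and HOXC5 (9.18) just under it and HOXB13 (10.5) and HOXC8 (10.98) just over it in KYSE510. For scale, HOXD9 had 0 reads in 3 of the 4 KYSE30 libraries, and a count of 0 allows up to 3 reads.

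To set the lines against each other, all 8 libraries were put on 1 scale. In the shNC libraries 77.5% of 15041 genes differed between the lines (limma, adjusted p under 0.05), 39.5% higher and 38% lower in KYSE510. Of 25 HOX genes tested, 19 differed, a share near that background, with 8 higher and 11 lower in KYSE510. HOXB9, counted among the higher, and HOXC8, which did not pass, were under the limit of reading in KYSE30 and entered this comparison through their KYSE510 level. The direction differed between the clusters in part. Apart from HOXB9, which was higher, all 6 HOXB genes tested were lower in KYSE510. Of the 7 HOXC genes tested, HOXC8 included, 4 were higher and 3 did not pass. None of the 7 was lower, nor at an unadjusted p under 0.05. Of the 11 HOXA genes 5 were lower, with HOXA3, HOXA4, HOXA5 and HOXA10 among them, and 3 were higher, HOXA7, HOXA9 and HOXA11.

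HOXA9 had the widest gap of the members. It was at 38.4 and 44.6 normalized counts in the KYSE30 shNC libraries and at 873 and 851 in those of KYSE510. The difference was 4.37 ± 0.21 on the log2 scale (SE, n = 2 libraries per group; limma, adjusted p = 5.1e-15), or 20.6-fold. Per kilobase of exon HOXA9 was the most abundant HOXA gene in KYSE510 (285 normalized counts per kb) and seventh of the 11 in KYSE30 (13.7). Its neighbour HOXA10 went the other way, with 385 and 404 in KYSE30 against 213 and 182 in KYSE510. It was 2.00-fold lower in KYSE510 (adjusted p = 6.4e-08). HOXA11 was at 15.7 and 24.9 in KYSE30 and at 86.3 and 91.7 in KYSE510, 4.43-fold higher (adjusted p = 5.1e-06). HOXA11 shares 31.1% of its exon bases with HOXA11-AS on the opposite strand. The kit is not stated to keep strand, so HOXA11 is uncertain to that extent. The antisense RNA HOXA10-AS, given here because its exons lie on those of HOXA9 and HOXA10, was higher in KYSE510 by 0.77 ± 0.18 (adjusted p = 0.00058).

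Nearer the 3′ end of the cluster, HOXA4 differed by -1.40 ± 0.30 and HOXA5 by -0.81 ± 0.30. HOXA3 differed by -0.43 ± 0.13 (adjusted p = 0.0052), and HOXA7 was higher by 0.44 ± 0.13 (adjusted p = 0.0032). The calls of HOXA3 and HOXA5 each depended on single libraries: without the second KYSE510 shNC library their differences were -0.28 (adjusted p = 0.11) and -0.40 (adjusted p = 0.27), and HOXA5 also lost its call without the second KYSE30 shNC library (adjusted p = 0.051).

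HOXB3, HOXB4, HOXB5, HOXB6, HOXB7 and HOXB13 were all lower in KYSE510. HOXB3 was at 368 and 407 in KYSE30 and at 100.4 and 90.5 in KYSE510, 4.03-fold lower (adjusted p = 5.3e-11). HOXB7, the leading HOXB gene of both lines per kilobase, was at 374 and 378 against 201 and 192, 1.91-fold lower (adjusted p = 1.9e-07). HOXB13, the 5′ end of the cluster, was at 76.8 and 73.6 against 15.1 and 12.4, 5.30-fold lower (adjusted p = 5.5e-06). The folds of HOXB4, HOXB5 and HOXB6 were 3.21, 3.09 and 3.59. The groups did not overlap for any of these 6 genes. The share of all genes without overlap was not counted, and 77.5% of all genes differed between the lines, so this adds no support. HOXB9 is given as a description with no test, since it passed the filter only through KYSE510: it was at 9.84 and 8.29 in KYSE30, too low to read, and at 54.0 and 81.5 in KYSE510.

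The HOXC genes were led by HOXC13 and HOXC10 in both lines. HOXC13 was the most abundant HOX gene per kilobase in both, at 308 normalized counts per kb in KYSE30 and 417 in KYSE510, and took 18.5% and 24.6% of the summed HOX level in the shNC libraries. It was higher in KYSE510 by 0.44 ± 0.07 (adjusted p = 2.6e-06). HOXC11 was at 40.4 and 52.9 in KYSE30 and at 195 and 169 in KYSE510, 3.92-fold higher (adjusted p = 6.4e-08). HOXC9 was 2.17-fold higher (40.4 and 39.4 against 88.5 and 86.0) and HOXC6 2.61-fold higher (38.4 and 21.8 against 64.7 and 91.7). HOXC10 differed by 0.10 ± 0.12 (adjusted p = 0.44) and HOXC4 by 0.42 ± 0.44, and neither passed the test. HOXC8, HOXA2, HOXA6 and HOXA13 also did not pass. HOXC13-AS, the antisense RNA at HOXC13, was higher in KYSE510 by 1.79 ± 0.20 (adjusted p = 1.3e-08).

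**Figure D1:**
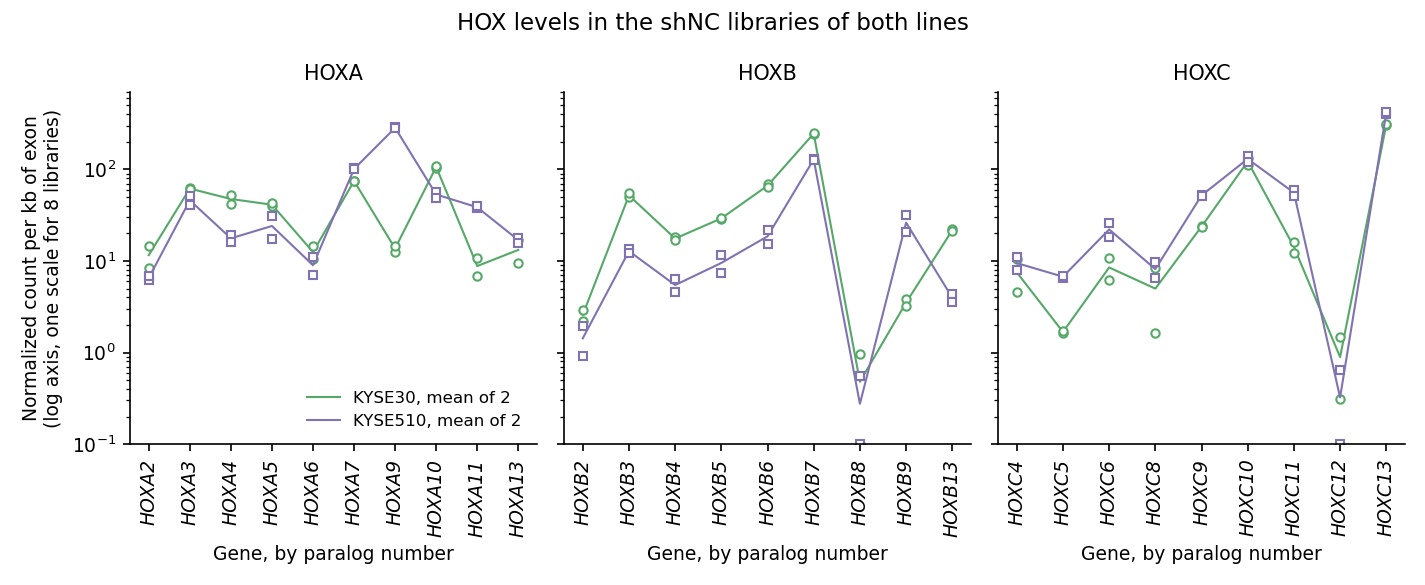
Normalized counts per kilobase of exon (log axis, one scale for the 8 libraries) in the 2 shNC libraries of KYSE30 (circles) and KYSE510 (squares) for HOXA, HOXB and HOXC genes in order of paralog number, with lines through the mean of 2; libraries with 0 reads are drawn at the lower edge. HOXA9 stands at 285 in KYSE510 and 13.7 in KYSE30, and the KYSE510 line runs below that of KYSE30 over most of HOXB and above it over most of HOXC.

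The knockdown question was then asked in each line by itself, shLHX2 against shNC. For KYSE510 the fall of LHX2 itself could not be read from these libraries. In KYSE30 39.2% of 15163 genes passed the test (limma, adjusted p under 0.05), 18.9% higher and 20.2% lower, and of the 24 HOX genes tested 5 passed, 2 higher and 3 lower. In KYSE510 32.8% of 14663 genes passed, 15% higher and 17.8% lower, and of the 25 HOX genes tested 5 passed, 3 higher and 2 lower. With library totals as the scale the KYSE510 split was 4 higher, now with HOXA9, and 1 lower, without HOXB9. The HOX shares, 20.8% and 20%, were under the background in both lines. All genes were not matched to the HOX genes for read count, and many HOX genes had few reads. Whether the HOX genes responded less was therefore not tested. The median log2 fold change of the HOX genes tested was 0.00 in KYSE30 and 0.14 in KYSE510, and that of all genes was 0.00 in each. Of 23 HOX genes tested in both lines, 3 passed in both, each in the same direction: HOXA3 and HOXA10 rose and HOXC13 fell. Of 13597 genes tested in both lines, 16.7% passed in both in the same direction. The share of all genes whose shLHX2 and shNC libraries did not overlap was not counted. Where a lack of overlap is given for a knockdown below, it describes the libraries and adds no support.

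HOXA3 is known for the third pharyngeal pouch, from which thymus and parathyroid arise. Its gene lies at chr7:27106184-27152581 (hg38, minus strand). In KYSE30 it was at 275 and 267 normalized counts in shNC and at 398 and 451 with shLHX2. KYSE510 had 213 and 173 in shNC and 302 and 300.2 with shLHX2. In each line both shLHX2 libraries were above both shNC libraries, by 1.56-fold in KYSE30 (log2 0.64 ± 0.11, adjusted p = 6.1e-05) and 1.56-fold in KYSE510 (0.64 ± 0.13, adjusted p = 4.8e-05). HOXA3 passed in all alternatives run for both lines.

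The noncoding RNA HOXA-AS2, whose exons lie on those of HOXA3 and HOXA4 on the opposite strand, was at 142 and 144 in KYSE30 shNC and at 214 and 237 with shLHX2. KYSE510 had 66.1 and 53.2 against 125 and 115. It rose by 0.65 ± 0.14 (adjusted p = 0.0011) and by 1.01 ± 0.22 (adjusted p = 0.00022). GENCODE 29 places 374 of the 4306 exon bases of HOXA3 (8.69%) on exons of HOXA-AS2 and 288 on those of HOXA-AS3, and 378 and 294 on 2 unnamed entries of its own strand. The library kit is not stated to keep strand, so reads of these overlaps cannot be told apart and both genes are uncertain to that extent. Of the 11 HOXA genes only HOXA3 and HOXA10 rose in these tests. HOXA4 shares 14.5% of its exon bases with HOXA-AS2 and 31.0% with AC004080.6 on its own strand, and is uncertain to that extent. It was at 75.2 and 94.1 against 83.5 and 83.4 in KYSE30. In KYSE510 it was at 32.5 and 27.7 against 41.6 and 30.6, and the groups overlapped in both lines.

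HOXA10 sits 5′ of HOXA9 at chr7:27170591-27180261 (hg38, minus strand). In KYSE30 its normalized counts were 392 and 412 in shNC and 589 and 581 with shLHX2. In KYSE510 they were 207 and 179 in shNC and 292 and 329.9 with shLHX2. It rose by 1.46-fold in KYSE30 (0.54 ± 0.08, adjusted p = 2.6e-05) and by 1.60-fold in KYSE510 (0.68 ± 0.13, adjusted p = 1.8e-05), with no overlap of the groups. The 2 lines thus rose from shNC levels that differed 2.00-fold on the joint scale, and the difference of the knockdown effects was 0.13 (95% interval -0.18 to 0.44).

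HOXA9 and HOXA10 share exon bases with AC004080.3, a protein-coding entry on the same strand (13.1% and 9.93%), and with HOXA10-AS on the other (13.9% and 16.4%), so both are uncertain to that extent. HOXA9 was at 39.1 and 45.4 in KYSE30 shNC and at 51.0 and 57.3 with shLHX2, and in KYSE510 it was at 849 and 834 against 908 and 954. It did not pass in either line (limma, 0.35 ± 0.28, adjusted p = 0.33, and 0.14 ± 0.07, adjusted p = 0.099). Both shLHX2 libraries were above both shNC libraries in each. HOXA10-AS was at 87.2 and 87.7 against 67.7 and 90.4 in KYSE30 and at 144 and 143 against 137 and 131 in KYSE510, and did not pass in either line.

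HOXC13 lies at the 5′ end of its cluster, chr12:53938765-53946544 (hg38, plus strand). In KYSE30 it was at 756 and 767 normalized counts in shNC and at 561 and 508 with shLHX2. In KYSE510 it was at 958 and 1018 in shNC and at 745 and 797 with shLHX2. The gene fell in both lines, by 1.42-fold in KYSE30 (-0.51 ± 0.07, adjusted p = 1.5e-05) and by 1.28-fold in KYSE510 (-0.36 ± 0.07, adjusted p = 2.4e-05), with no overlap of the groups. HOXC13-AS, with which it shares 7.10% of its exon bases, was at 61.1 and 74.0 against 36.2 and 44.2 in KYSE30 and fell there (-0.75 ± 0.27, adjusted p = 0.035). In KYSE510 HOXC13-AS was at 241 and 206 against 223 and 245, and the groups overlapped. The difference between the lines was 0.79 and did not pass (adjusted p = 0.071).

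The other HOXC genes did not pass in either line. HOXC10 was at 266 and 315 against 333 and 305 in KYSE30 and at 315 and 277 against 309.8 and 332 in KYSE510. HOXC11 was at 41.1 and 53.9 against 20.4 and 35.2 in KYSE30 (-0.81 ± 0.34, adjusted p = 0.067) and at 190.04 and 165 against 152 and 160.3 in KYSE510 (-0.19 ± 0.15). In both lines its shLHX2 libraries were under its shNC libraries. HOXC9 was at 41.1 and 40.2 against 25.04 and 43.2 in KYSE30 and at 86.1 and 84.3 against 98.3 and 78.6 in KYSE510, with overlap in both. HOXC4 and HOXC6, which share 484 exon bases, had log2 fold changes of -0.05 and -0.58 in KYSE30 and of 0.65 and -0.23 in KYSE510. HOXC8 was read in KYSE510 only, at 17.8 and 12.2 against 10.8 and 3.06 normalized counts (-1.22 ± 0.59, adjusted p = 0.11). Summed over the HOXC genes on the joint scale, the level was 1174 and 1195 in KYSE30 shNC and 960.1 and 919.7 with shLHX2. In KYSE510 it was 1719 and 1714 against 1437.5 and 1493. Much of these sums is HOXC13.

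**Figure D2:**
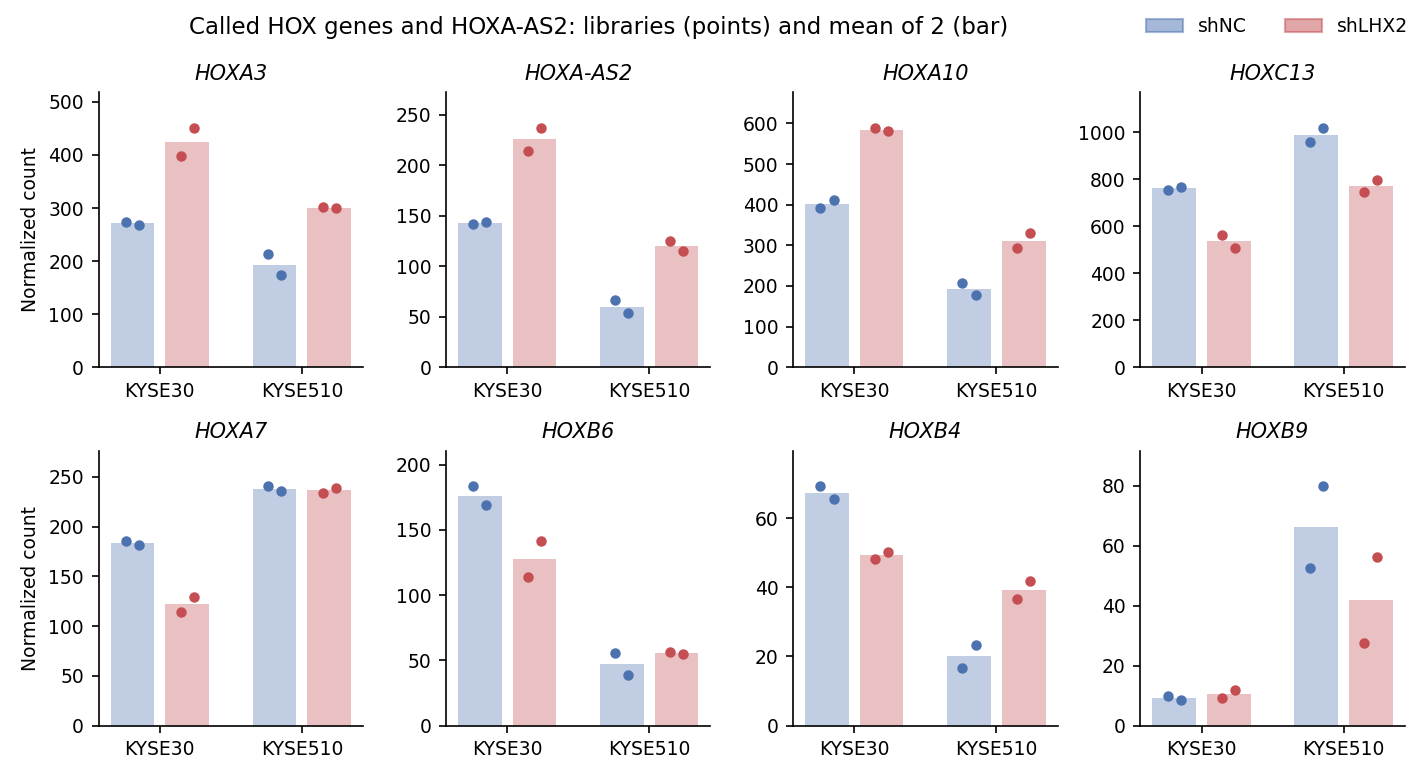
Normalized counts of the 7 HOX genes that passed in either line, and of HOXA-AS2, in each library (points; bars are the mean of 2, from 0) for shNC and shLHX2 in KYSE30 and KYSE510, each line on its own scale. In both lines the shLHX2 points are above the shNC points for HOXA3, HOXA-AS2 and HOXA10 and below them for HOXC13; those of HOXB9 in KYSE510 overlap.

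HOXA7, a mid-cluster gene at chr7:27153716-27157936 (hg38, minus strand), fell in KYSE30. It was there at 185 and 182 normalized counts in shNC and at 114 and 129.6 with shLHX2, 1.51-fold lower (-0.60 ± 0.16, adjusted p = 0.0044). In KYSE510 it was at 240.4 and 236 against 234 and 239, a fold change of -0.01 ± 0.12 with overlap of the groups. The difference between the lines passed the test (0.57 ± 0.19, adjusted p = 0.032). Without the first KYSE30 shLHX2 library the fall in KYSE30 was -0.50 and missed the threshold (adjusted p = 0.059). GENCODE 29 places 62.5% of the exon bases of HOXA7 on exons of HOXA-AS3 on the opposite strand, so the gene is uncertain. HOXA-AS3 itself was at 29.1 and 33.8 against 30.6 and 34.2 in KYSE30 and at 15.7 and 5.54 against 15.8 and 13.3 in KYSE510, and did not pass.

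HOXB6, which lies at chr17:48595751-48604992 (hg38, minus strand), fell in KYSE30 from 183 and 169 normalized counts to 114 and 142 (-0.48 ± 0.16, adjusted p = 0.023). In KYSE510 it was at 55.6 and 38.8 against 56.6 and 55.1, with overlap. The KYSE30 call was lost without the first shNC library (-0.42, adjusted p = 0.14) and without the first shLHX2 library (-0.31, adjusted p = 0.23). HOXB6 shares 16.6% of its exon bases with HOXB3 on its own strand and 16.3% with HOXB-AS3 on the other.

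HOXB4, known for the self-renewal of blood stem cells, lies at chr17:48575513-48580111 (hg38, minus strand). It shares 12.8% of its exon bases with AC103702.1 on its own strand and is uncertain to that extent. It rose in KYSE510, from 16.8 and 23.3 normalized counts to 36.6 and 41.9 (0.96 ± 0.37, adjusted p = 0.042). In KYSE30 it was at 69.1 and 65.5 against 48.2 and 50.2, a value of -0.45 ± 0.25 that did not pass (limma, adjusted p = 0.16). The groups did not overlap there. The difference between the lines was 1.40 ± 0.44 and passed (adjusted p = 0.026). The KYSE510 call was lost when any 1 of the 4 libraries was left out, with values from 0.72 to 1.18 and adjusted p from 0.058 to 0.32. With shLHX2 the means of the lines lay closer: on the joint scale the KYSE30 and KYSE510 means were 66.1 and 20.5 normalized counts in shNC and 47.8 and 39.5 with shLHX2.

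HOXB9 passed in KYSE510 with 52.5 and 79.8 normalized counts in shNC and 27.5 and 56.2 with shLHX2 (-0.76 ± 0.29, adjusted p = 0.042). These groups overlapped, since the second shLHX2 library lay above the first shNC library. Without the first shLHX2 library the value was -0.20 (adjusted p = 0.72), and without the second shNC library it was -0.47 (adjusted p = 0.41). In KYSE30 the gene was too low to read. The most abundant HOXB genes did not pass in either line. HOXB7 was at 381 and 386 against 359.9 and 356 in KYSE30 and at 195 and 188.5 against 192 and 234 in KYSE510. HOXB3 was at 375 and 415 against 395 and 356 in KYSE30 and at 97.6 and 88.7 against 112 and 109 in KYSE510. HOXB5 was at 60.1 and 61.3 against 65.9 and 56.3 in KYSE30 and at 14.7 and 23.3 against 28.3 and 18.4 in KYSE510. HOXB13 had fold changes of 0.06 ± 0.22 in KYSE30 and -0.79 ± 0.55 in KYSE510, where it was close to the limit of reading. In KYSE510 it passed that limit only through its shNC libraries (mean 13.4, against 7.64 with shLHX2).

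Of the remaining HOXA genes none passed. HOXA2 had fold changes of 0.57 ± 0.34 and 0.79 ± 0.42 and HOXA6 of 0.79 ± 0.40 and 0.38 ± 0.50 in KYSE30 and KYSE510, and for both genes the shLHX2 libraries were above the shNC libraries in each line. HOXA6 shares 39.3% of its exon bases with HOXA-AS3 on the opposite strand and is uncertain to that extent. The values of HOXA5 were 0.26 ± 0.22 and 0.41 ± 0.30, those of HOXA11 0.04 ± 0.43 and 0.22 ± 0.20, and those of HOXA13 0.16 ± 0.27 and -0.05 ± 0.21. The median log2 fold change of the 11 HOXA genes was 0.26 in both lines, that of the HOXB genes was -0.08 over 6 genes in KYSE30 and 0.25 over 7 in KYSE510, and that of the HOXC genes was -0.41 over 6 genes in KYSE30 and -0.19 over 7 in KYSE510. The KYSE510 medians take in HOXB13 and HOXC8, which passed the limit of reading there only through their shNC libraries. HOXD8 was at 18.0 and 11.6 against 6.49 and 8.04 in KYSE30 (-0.97 ± 0.53, adjusted p = 0.16). It too passed the limit only through shNC, with a mean of 14.8 against 7.26 with shLHX2.

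**Figure D3:**
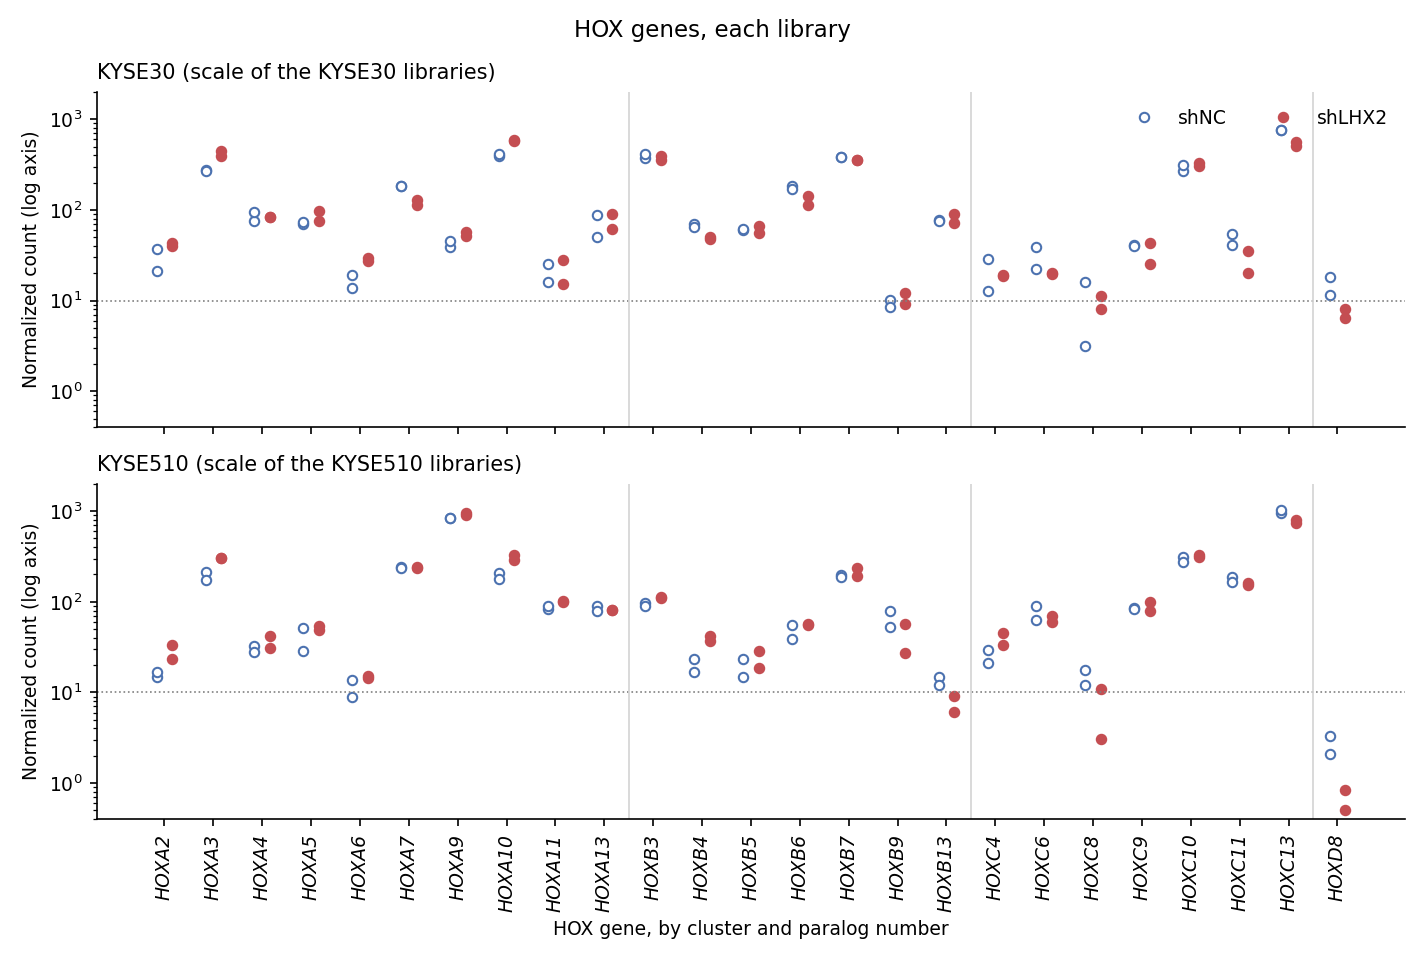
Normalized counts (log axis, separate scale for each line) of 25 of the 26 HOX genes readable in either line, with the 2 shNC libraries as open points and the 2 shLHX2 libraries as filled points; the dotted line marks the limit of 10, and libraries with 0 reads are drawn at 0.5. HOXC13 is highest in KYSE30 (756 and 767 in shNC), and HOXC13 and HOXA9 are highest in KYSE510.

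**Figure D4:**
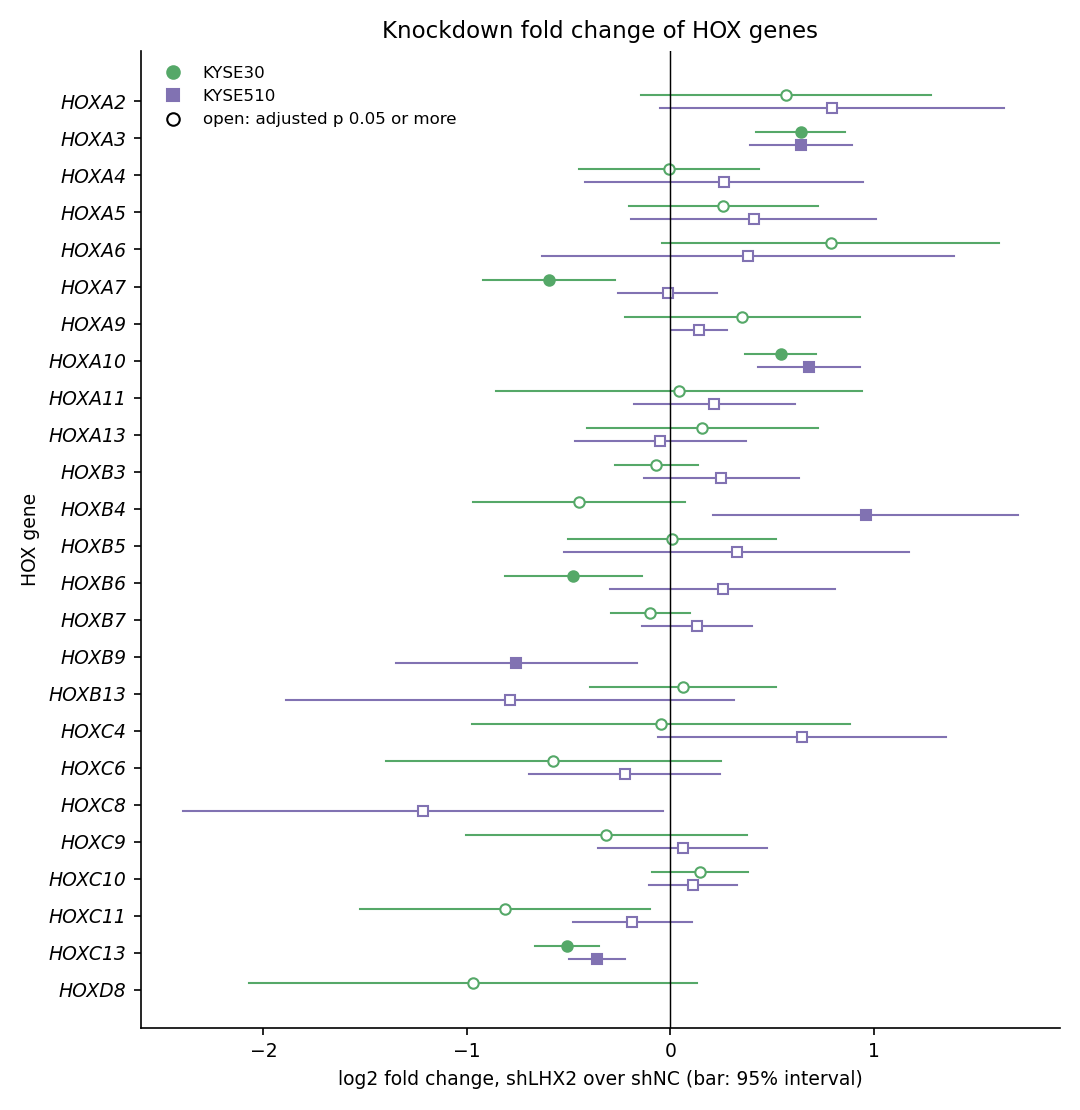
Log2 fold change of shLHX2 over shNC for 25 readable HOX genes in KYSE30 (circles) and KYSE510 (squares), with bars for the 95% interval and filled points for an adjusted p under 0.05. HOXA3 and HOXA10 are filled on the right and HOXC13 on the left in both lines, and the intervals of HOXA2, HOXA6 and HOXC8 are wide.

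The difference of the knockdown effect between the lines was tested for 25 HOX genes, and 2 passed, HOXB4 and HOXA7, both with the higher value in KYSE510. Of all 15041 genes 19.1% passed, 9.16% higher and 9.97% lower in KYSE510, so the HOX share was under the background, again without matching for read count. For HOXA3 the difference was -0.01 (95% interval -0.35 to 0.34) and for HOXC13 it was 0.14 (-0.07 to 0.34). HOXB6 fell in KYSE30 and not in KYSE510, but its difference did not pass (0.73 ± 0.32, adjusted p = 0.12).

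Genes that work on the HOX clusters, or with HOX proteins, were described by lists, each beside the 39.2% of all genes that passed in KYSE30 and the 32.8% in KYSE510. The lists were not matched to all genes for read count either. Of 9 TALE cofactors tested, from a list of 10, 2 rose and 5 fell in KYSE30, and 1 rose and 2 fell in KYSE510. The shares that passed were 77.8% and 33.3%, the latter near the background of 32.8%. MEIS1 fell in both (-0.57 ± 0.12 and -0.49 ± 0.16), as did PBXIP1, which binds PBX proteins (-0.80 ± 0.06 and -0.26 ± 0.09). In KYSE30 MEIS2 (-0.51 ± 0.08) and PBX3 (-0.47 ± 0.10) fell too, and MEIS3 rose (0.72 ± 0.16). The median was -0.23 in KYSE30 and 0.12 in KYSE510. All 9 cofactors were lower in KYSE510 than in KYSE30 in the shNC libraries, where 38% of all genes were lower.

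All 23 Polycomb genes were tested, and 5 rose and 4 fell in KYSE30 and 8 rose and 6 fell in KYSE510. That is 39.1% in KYSE30, near the background of 39.2%, and 60.9% in KYSE510, against 32.8%. SUZ12, a core subunit of the complex that methylates H3K27, fell in both lines (-0.73 ± 0.06 and -0.41 ± 0.05). BMI1, a subunit of the other Polycomb complex, fell in both as well (-0.61 ± 0.07 and -0.60 ± 0.08). PHF19 and MTF2, accessory proteins of the methylating complex, rose in both, by 0.58 ± 0.05 and 0.40 ± 0.06 in KYSE30 and by 0.47 ± 0.08 and 0.54 ± 0.08 in KYSE510. CBX7 rose by 0.41 ± 0.10 and 0.86 ± 0.12. The median over the list was 0.04 in KYSE30 and 0.01 in KYSE510.

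Of 14 Trithorax and demethylase genes 2 rose and 6 fell in KYSE30 and 1 rose and 6 fell in KYSE510 (57.1% against 39.2% of all genes, and 50% against 32.8%). KDM6B, which removes the H3K27 methyl mark, changed most among them (-1.07 ± 0.06 and -0.60 ± 0.06), and KMT2A also fell (-0.12 ± 0.04 and -0.17 ± 0.05). The medians were -0.11 and -0.08. Of 9 retinoid and CDX genes tested in each line, 5 rose and 1 fell in KYSE30 and 1 rose and 2 fell in KYSE510, with medians of 0.09 and -0.16. These were 66.7% in KYSE30, against 39.2%, and 33.3% in KYSE510, near the background of 32.8%. In KYSE30 ALDH1A3, which makes retinoic acid, rose by 0.95 ± 0.02 and CYP26B1, which breaks it down, by 0.84 ± 0.11. CYP26A1, which also breaks it down, was at 123 and 131 normalized counts in KYSE30 shNC and at 11.1 and 15.1 with shLHX2 (-3.25 ± 0.35). KYSE510 did not follow. On the joint scale its means in shNC and with shLHX2 were 14551 and 14351 for ALDH1A3 and 401 and 342 for CYP26B1. CYP26A1 had few reads there, with means of 4.42 and 7.93. The difference between the lines passed for ALDH1A3 and CYP26B1 (limma, adjusted p = 9.9e-16 and 1.0e-05).

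Of 15 flanking genes tested, 5 rose and 5 fell in KYSE30 and 7 rose and 1 fell in KYSE510 (66.7% against 39.2% of all genes, and 53.3% against 32.8%). SNX10, beyond the HOXA cluster, rose in both lines (0.73 ± 0.14 and 0.42 ± 0.12), and CBX5, beyond the HOXC cluster, also rose in both (0.62 ± 0.03 and 0.47 ± 0.05). CALCOCO2, beyond the HOXB cluster, was lower with shLHX2 in both lines. On the joint scale its means were 1470 in shNC against 1190 in KYSE30 and 1891 against 1444 in KYSE510. The medians were 0.07 in KYSE30 and 0.14 in KYSE510. Of the homeobox genes outside the clusters 0 of 15 rose and 5 fell in KYSE30, and 0 of 17 rose and 6 fell in KYSE510 (limma), and 0 rose at an unadjusted p under 0.05 in either line. The shares that passed, 33.3% and 35.3%, were near those of all genes, of which 18.9% rose and 20.2% fell in KYSE30 and 15% rose and 17.8% fell in KYSE510. DLX5 had fold changes of -2.97 ± 0.35 and -0.54 ± 0.22 and DLX2 of -1.57 ± 0.41 and -1.24 ± 0.20, and the medians of the list were -0.35 and -0.14. Of the antisense and noncoding genes of the clusters, 1 of 9 rose and 1 fell in KYSE30 (HOXA-AS2 and HOXC13-AS) and 1 of 10 rose and 0 fell in KYSE510, with medians of 0.01 and 0.12. These shares, 22.2% and 10%, were under the 39.2% and 32.8% of all genes. In KYSE510 1 of these 10 genes was lower at an unadjusted p under 0.05.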

How the data were processed

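RNA was measured in 8 libraries, 2 per group, prepared per the labels with a TruSeq RNA kit, and reads were placed on hg38. What aligned and counted the reads, with which annotation and strand setting, is not stated. The authors made the deposited tables with DESeq2, as the sheet names show. Each deposited row gives a signal: reads over size factors, averaged across the libraries of that line. It also gives the authors' log2 fold change with an error, their test statistic, p-value, adjusted p-value and call. No value of these comparison columns is reported. Columns of values per library whose sample could not be named numbered 0.

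Whole reads for every library were then recovered from this average. The 4 steps of the mean were those of genes with a single read. The sign of the authors' fold change told the group, and the log2 fold change and its standard error, recalculated from candidate reads, decided which whole reads meet the mean. This gave reads for all but 26 of 26008 genes in KYSE30 and all but 127 of 25561 in KYSE510, and for all HOX rows. Those left out were mainly very abundant genes, so that the reads worked back covered 87.5% and 80.4% of the summed means. Tested on simulated data, 400 of 400 genes came back right in each line. The simulation used the same steps and the same formula for the fold change and its error as the search. It cannot show that the deposited columns follow that formula. Its levels came from genes with a mean of at least 10, without the most abundant ones. The use of the fold change columns to choose between reads went beyond the planned use of their sign.

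limma 3.58.1 in R 4.3.3 (voom, the size factors of the tables, genes with a mean of at least 10) compared shLHX2 with shNC in each line, with Benjamini-Hochberg over all genes and a call at an adjusted p under 0.05. Median-of-ratios factors over the 8 libraries served the comparisons between lines. Errors are standard errors from these fits. Levels per kilobase used exon lengths of GENCODE 29, and promoters came from RefSeq. HOX genes above the limit are named, except where an item is not reported here; genes of the lists (antisense and noncoding genes of the clusters, TALE cofactors, Polycomb, Trithorax and demethylases, retinoid and CDX genes, flanking genes, other homeobox genes) only where called in either line, except HOXA-AS3 and HOXA10-AS, named outside this rule, after their values were seen, for the exon bases they share with HOX genes. Members and lists were chosen with earlier results of these data known. Counts in a library limit the precision most for genes with few reads. The alternatives were library totals, minimum means of 1 and 50, pseudocounts of 1 and 4, all 8 libraries in 1 fit, a 1.5-fold limit and leaving out each library.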

Additional observations from a re-analysis of the deposited data

Results flagged for a closer look

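HOXB4 and HOXA7 were singled out because their knockdown effects differed between the lines in the test of that difference. For HOXB4 there was a difference of 1.40 on the log2 scale (KYSE510 minus KYSE30), from -0.45 in KYSE30 and 0.96 in KYSE510, with both shLHX2 libraries lower in KYSE30 and both higher in KYSE510 than the shNC libraries. Over the alternatives its adjusted p ran from 0.024 to 0.13, and it was lost in 4 of 11. HOXA7 had a difference of 0.57, from -0.60 in KYSE30 and -0.01 in KYSE510. Over the alternatives its adjusted p ran from 0.026 to 0.15, and it was lost in 7 of 12. With 2 libraries a group no single library could be tested as standing apart.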

How the results depend on the processing

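HOXA3 passed in every alternative run in both lines, as did HOXA10 in KYSE510, and no called HOX value changed its sign in any comparison. HOXA10 in KYSE30 and HOXC13 in both lines were lost only with the 1.5-fold limit. With that limit 1580 genes passed in KYSE30 (2 of them HOX genes) and 881 in KYSE510. In KYSE510 the 5 HOX calls became 3 with a minimum mean of 1 and 3 with all 8 libraries in 1 fit, HOXB4 and HOXB9 being lost. Leaving out each library gave 4541 to 4754 genes in KYSE30 and 3332 to 3762 in KYSE510, with 3 to 6 and 3 to 4 HOX genes; the 3 came without the first shLHX2 library in each line and without the second shNC library in KYSE510. For the difference between the lines, a minimum mean of 50 left 1 HOX gene and leaving out each library gave 0 to 2, beside 2185 to 2433 genes in all; without the first KYSE30 shNC, first KYSE30 shLHX2, first KYSE510 shNC or second KYSE510 shLHX2 library it was 0. For the levels in shNC, leaving out each library gave 17 to 22 HOX genes and 10881 to 11659 genes. Library totals moved the median of all genes by less than 0.1 in each comparison. No paired analysis was possible because the columns carry no replicate number, and the authors' deposited test was not run as an alternative since reads could be worked back. HOX genes with few reads limit what can be seen.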
